A study of Mus musculus with 6 samples.

Results

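MHC class II genes were described in hematopoietic stem and progenitor cells (HSPCs) of mice with and without acute myeloid leukemia (AML). The 7 genes were taken by symbol from the 32285 genes of the count matrices. They are H2-Aa (ENSMUSG00000036594), H2-Ab1 (ENSMUSG00000073421), H2-Eb1 (ENSMUSG00000060586), H2-DMa (ENSMUSG00000037649), H2-DMb1 (ENSMUSG00000079547), Cd74 (ENSMUSG00000024610) and Ciita (ENSMUSG00000022504). In GRCm38 the 5 H2 genes lie close together on chromosome 17, at chr17:34119541-34139101 (H2-DMa), chr17:34153072-34160230 (H2-DMb1), chr17:34257689-34269419 (H2-Ab1), chr17:34282744-34287823 (H2-Aa) and chr17:34305867-34316674 (H2-Eb1). H2-Aa is on the minus strand and the others on the plus strand, and Ciita lies at chr16:10480059-10528418. All mice were female C57BL/6J carrying CD45.1, aged 8 to 12 weeks and not conditioned. The AML group received 1000000 C1498 cells, a murine AML line carrying CD45.2, and the control group received PBS. At day 21 the CD45.1+ Lin- cKit+ Sca1+ (LSK) cells of the host bone marrow were sorted, and their RNA was counted by droplet single-cell sequencing in 3 PBS and 3 AML libraries. C1498 is a single transplanted line, so the AML group represents that line only.

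MHC class II molecules present peptides from the endosomal pathway to CD4+ T cells. H2-Aa and H2-Ab1 encode the α and β chains of the I-A molecule, and H2-Eb1 encodes the β chain of I-E. C57BL/6 mice make no I-E protein, because their I-E α gene is defective, so H2-Eb1 was followed as RNA only. Cd74 encodes the invariant chain, which escorts new class II molecules and fills their groove, and H2-DMa and H2-DMb1 encode the DM heterodimer, which exchanges the invariant chain remnant for peptide. Ciita encodes the coactivator that switches the family on, constitutively in dendritic cells and B cells and after interferon-γ in many other cells. Dendritic cells, B cells and macrophages carry most class II in marrow, so markers of these cells are given beside the results.

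The deposited cell table keeps 16822 cells of 48510 barcodes. It holds 12170 cells of the PBS group (6838, 934 and 4398 in PBS 1, 2 and 3) and 4652 of the AML group (693 in AML 1 and 3959 in AML 3), and no cell of AML 2. Group comparisons therefore set 3 PBS against 2 AML libraries. Kept cells had a median of 2393 unique molecular identifiers (UMIs) in AML 1 and 4015 to 9586 in the other libraries, so AML 1 was the shallowest. The LSK markers Kit and Ly6a (Sca1), the progenitor marker Cd34 and the CD45 gene Ptprc were detected in all 5 libraries, while the T cell genes Cd3e and Cd3d reached at most 2 and 18 UMIs in any library. Among the kept cells, 36 barcode sequences occurred in more than 1 library. Fewer class II-expressing cells and less class II RNA per cell cannot be told apart in a library sum, so both are given below.

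Summed over all kept cells, every gene of the family was lowest in AML 1, and 5 of the 7 were highest in AML 3. Levels are CPM, the UMIs of a gene per 1000000 UMIs of the cells summed. Cd74 stood at 306, 243 and 250 CPM in PBS 1, 2 and 3, at 119 CPM in AML 1 and at 463 CPM in AML 3. H2-Aa stood at 43.9, 47.2 and 41.3 CPM in the PBS libraries, 22.1 CPM in AML 1 and 77.3 CPM in AML 3. H2-Eb1 stood at 22.3, 21.1 and 20.8 CPM in the PBS libraries, 11.8 CPM in AML 1 and 41.4 CPM in AML 3. The PBS libraries lay close together for these genes, and the pair of AML libraries lay on either side of them. H2-Ab1 read 59.0, 65.2 and 56.6 CPM in PBS, 43.2 CPM in AML 1 and 80.5 CPM in AML 3, and H2-DMb1 read 44.5, 47.5 and 33.1 CPM in PBS, 21.1 CPM in AML 1 and 50.6 CPM in AML 3. H2-DMa read 148, 154 and 139 CPM in PBS, 83.8 CPM in AML 1 and 152 CPM in AML 3, so that AML 3 fell within the PBS range. Ciita rested on 64, 14 and 32 UMIs in PBS, 1 UMI in AML 1 and 53 UMIs in AML 3. The 2 groups overlapped for all 7 genes.

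**Figure D1:**
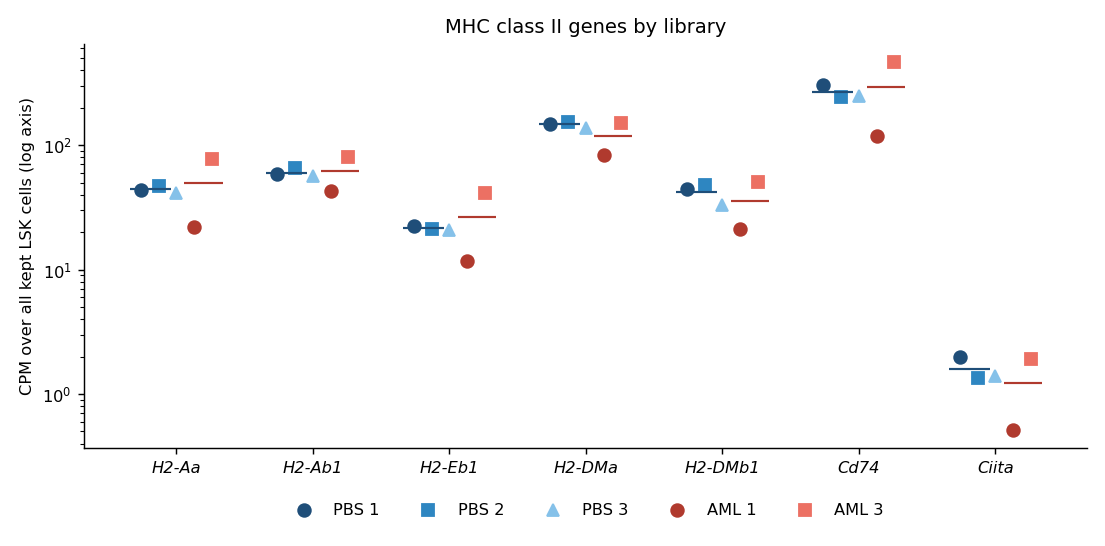
CPM of the 7 genes over all kept LSK cells on a log axis, with 1 point per library and a horizontal line at each group mean. AML 1 lies below every PBS library for all 7 genes, and AML 3 lies above every PBS library for all but H2-DMa and Ciita.

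No class II gene was called between AML and PBS over all kept cells. With edgeR's quasi-likelihood test on the library sums, 0 of 7 genes passed an adjusted p of 0.05 (Benjamini-Hochberg over all genes tested), where 0.16% of 14364 genes passed. None of the 7 had an unadjusted p under 0.05, and DESeq2 and limma-voom also called 0. The log2 fold change of Cd74 was 0.11 ± 0.397 (SE; edgeR adjusted p 0.940), from 266 ± 34.6 CPM (SD, n = 3) in PBS to 291 ± 243 CPM (SD, n = 2) in AML. That of H2-Eb1 was 0.42 ± 0.324 (edgeR adjusted p 0.635) and that of H2-DMa was -0.33 ± 0.267 (edgeR adjusted p 0.648). The other fitted values lay between -0.16 for H2-DMb1 and 0.22 for H2-Aa. The median over the 7 genes was 0.05, beside -0.03 over all genes tested. The AML value depended on the library: without AML 3 the fitted value of Cd74 was -1.16 and without AML 1 it was 0.77, and neither fit called a member. The labels do not say which mice a library holds, so p-values measure only the spread between these libraries, and an AML library left alone is assumed to vary like the PBS libraries.

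The share of cells with at least 1 UMI was lowest in AML 1 for all 7 genes, and highest in AML 3 for H2-Aa, H2-Ab1, H2-Eb1 and Cd74 and in PBS 2 for H2-DMa, H2-DMb1 and Ciita. Each cell was thinned to 2000 UMIs so that depth did not set the share, which left out 125 shallower cells of PBS 1 and 80 of PBS 3. Cd74 was then found in 11.1% of cells in PBS 1 (95% Clopper-Pearson interval 10.3 to 11.9%), 13.3% in PBS 2, 9.19% in PBS 3, 8.51% in AML 1 (6.54 to 10.8%) and 19.6% in AML 3 (18.3 to 20.8%). H2-Aa was found in 4.77%, 7.49% and 5.42% of cells in PBS and in 4.04% and 8.56% in AML. H2-DMa, the most often detected member, was found in 24.5 to 28.6% of cells in PBS, in 14.4% in AML 1 and in 26.1% in AML 3. Ciita was found in 0.278 to 0.535% of PBS cells, in 0.455% of AML 3 cells and in 0 of 693 AML 1 cells. At that depth 3 cells with a UMI would be a share of 0.433%, and the Clopper-Pearson upper limit is 0.531%. In the exact two-sided permutation test over libraries the mean shares differed by 2.85 percentage points for Cd74 (p = 0.8), by -5.94 for H2-DMa (p = 0.6) and by 0.41 for H2-Aa (p = 1.0), with AML minus PBS as the direction. With 3 against 2 libraries the smallest possible p is 0.1. Intervals cover counting error only.

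Some marker lists of other cells were also low in AML 1, and others were not. A UMI of at least 1 of 14 defining markers of B cells, plasma cells, dendritic cells or macrophages was present in 4.33% of AML 1 cells, in 13.2 to 14.4% of PBS cells and in 15.5% of AML 3 cells, without thinning. In cells thinned to 2000 UMIs the shares were 3.46%, 4.60 to 7.66% and 7.33%. The summed level of the 9 conventional dendritic cell markers was 161 CPM in AML 1, 187 to 224 CPM in PBS and 254 CPM in AML 3, with Xcr1 at 0 in AML 1 and Cd209a at 0 in AML 1, AML 3 and PBS 2. The 9 B cell markers summed to 51.9 CPM in AML 1 (7 of 9 detected), 77.8 to 88.8 CPM in PBS and 89.7 CPM in AML 3. Without the cells holding a defining marker the fitted value was 0.51 for Cd74 and 0.19 for H2-Aa, with neither called. The 6 plasma cell markers summed to 742 CPM in AML 1, 882 CPM in AML 3 and 972 to 1552 CPM in PBS. The summed level of the 6 plasmacytoid dendritic cell markers was higher in AML 1 (514 CPM) than in PBS (347 to 378 CPM). In AML 1 it rested on 3 of 6 markers, with Siglech, Ccr9 and Klk1 at 0, against 5 of 6 detected in each PBS library. The 10 monocyte and macrophage markers also summed higher in AML 1 (44.7 against 29.1 to 37.7 CPM), with 8 of 10 detected there. The part of these cells in the level of AML 1 alone was not tested.

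The kept cells fall into 4 classes that the authors assigned from module scores, the HSC class with 3152 cells and the multipotent progenitor classes MPP-2, MPP-3 and MPP-4 with 4839, 2369 and 6462 cells. In 43.9% of cells the 2 highest scores lay within 0.05, and the genes behind the scores are not known here, so class levels are a description with no test. H2-Aa stood at 77.1 ± 30.9 CPM (SD, n = 3) in the HSC class of PBS mice, 65.2 ± 33.4 in MPP-3, 36.3 ± 6.05 in MPP-4 and 30.2 ± 7.88 in MPP-2. The first pair in this order did not differ beyond its spread, nor did the last pair. HSC exceeded MPP-4 and MPP-2 in 4 of 5 libraries, the exception being AML 1, whose HSC class holds 23 cells. H2-Eb1 stood at 45.3 ± 13.1 CPM in MPP-3, 31.3 ± 8.49 in HSC, 18.96 ± 4.54 in MPP-4 and 12.8 ± 4.43 in MPP-2, and MPP-3 exceeded MPP-4 in 5 of 5 libraries. In PBS the ranges of MPP-3 and HSC overlapped, as did those of MPP-4 and MPP-2. In MPP-3 44 cells with at least 10 UMIs of H2-Aa, H2-Ab1 and H2-Eb1 together (1.86% of the class) held 69.0% of the class's UMIs of these 3 genes, against 16.3% in HSC, 15.7% in MPP-4 and 21.6% in MPP-2.

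Cd74 and the DM genes had orders of their own. Cd74 stood at 1809 ± 601 CPM (SD, n = 3) in MPP-3, 197 ± 56.3 in HSC, 118 ± 13.7 in MPP-4 and 72.5 ± 52.4 in MPP-2. MPP-3 exceeded HSC, and HSC exceeded both MPP-4 and MPP-2, in 5 of 5 libraries, while MPP-4 and MPP-2 did not differ beyond their spread. The order of MPP-3 and HSC did not hold for MPP-3 cells outside the authors' cluster 6. These stood at 239 CPM in PBS 2 and 34.5 CPM in AML 1, against 259 and 147 CPM in all HSC-class cells. In PBS 1, PBS 3 and AML 3 they stayed above HSC. H2-DMa was highest in MPP-4, at 179 ± 7.99 CPM against 121 ± 8.47 in HSC, 132 ± 4.66 in MPP-2 and 135 ± 8.97 in MPP-3, and MPP-4 exceeded each other class in 5 of 5 libraries. H2-DMb1 (38.9 to 47.9 CPM) and H2-Ab1 (55.5 to 65.8 CPM) had class means within their spread of each other, although H2-DMb1 was higher in MPP-4 than in MPP-2 in 5 of 5 libraries. Ciita stood at 2.31 ± 0.157 CPM in MPP-4, 1.78 ± 0.405 in HSC, 1.72 ± 0.242 in MPP-3 and 0.865 ± 0.773 in MPP-2, on few UMIs. In AML 1 the HSC class held no UMI of H2-Eb1, H2-DMa or Ciita, and 3 UMIs there would be 48.9 CPM.

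In thinned cells pooled over libraries the HSC class had the largest share with H2-Aa (9.65%, against 4.69 to 5.57% in the other classes) and H2-Eb1 (5.16% against 1.93 to 3.93%). By library the HSC share was the largest for H2-Aa in all but AML 1 and for H2-Eb1 in all but AML 1 and PBS 3, where MPP-3 had 3.85% and HSC 3.33%. For Cd74 the shares of HSC (17.9%, 16.6 to 19.3%) and MPP-3 (16.9%, 15.4 to 18.4%) had overlapping intervals, and MPP-3 was above HSC in PBS 2 and PBS 3. The share with Cd74 was 12.4% in MPP-4 and 7.50% in MPP-2. H2-DMa went the other way, with 19.97% of HSC cells and 29.6% of MPP-4 cells. H2-Ab1 lay between 9.42 and 10.9% in all classes. The share that stray RNA may give was read from cluster 7, 102 cells with erythroid genes (4895 CPM over 6 erythroid markers, median 6380 UMIs). It was 2.94% for Cd74 and H2-Ab1, 1.96% for H2-Aa and H2-DMb1, 3.92% for H2-Eb1 and 11.8% for H2-DMa. Shares were lower in cluster 6 for H2-DMa (5.71%), H2-Aa (1.71%) and H2-DMb1 (0 of 175 cells), and higher there for H2-Ab1, H2-Eb1 and Cd74. Of the 102 cells of cluster 7, 1 had at least 10 UMIs of H2-Aa, H2-Ab1 and H2-Eb1 together. That cluster 7 holds stray RNA alone was not tested. Median UMIs per cell were 3429 in HSC and 4098 to 6722 in the other classes. The cluster 7 share of H2-Eb1 rests on 4 cells (95% interval 1.08 to 9.74%), all class shares of this gene lay inside that interval, and they were not read as expression on their own. The same holds for H2-Aa in every class but HSC (cluster 7 interval 0.238 to 6.90%), for Cd74 in MPP-2 (0.611 to 8.36%) and for H2-DMb1 in MPP-2 (6.70%, interval 0.238 to 6.90%).

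**Figure D2:**
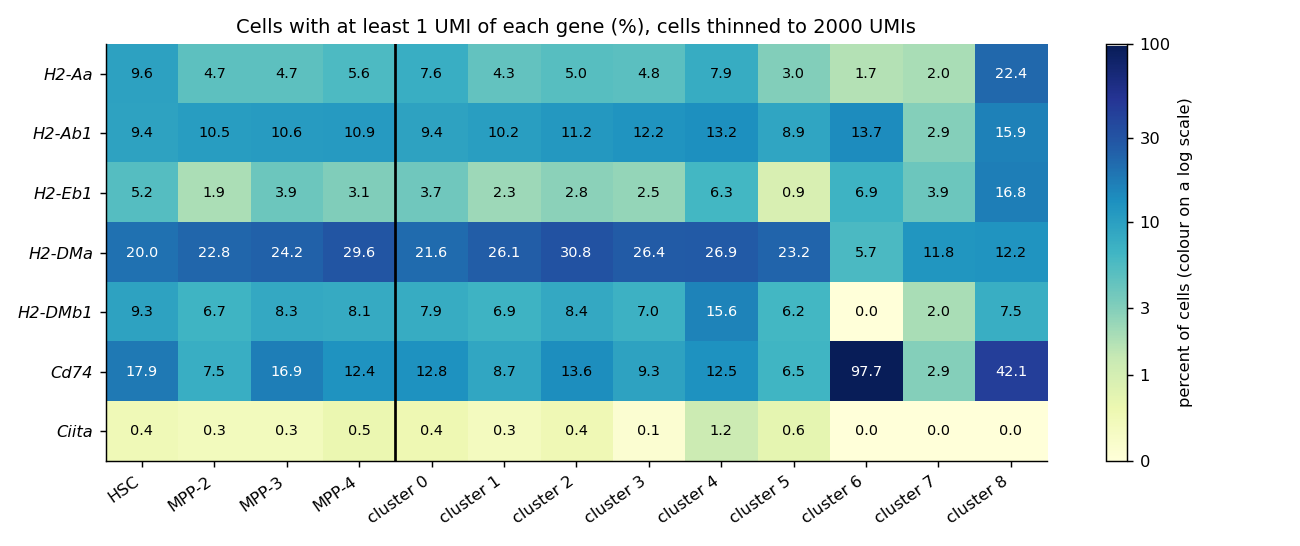
Percent of cells with at least 1 UMI of each gene, by class and by cluster, in cells thinned to 2000 UMIs, with colour on a log scale. Among the classes H2-Aa and H2-Eb1 are most frequent in the HSC class, and Cd74 reaches 97.7% in cluster 6.

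Pooled over libraries, H2-Aa, H2-Ab1 and H2-Eb1 had their highest levels in 2 small clusters, while H2-DMa did not. The cells carry cluster numbers from 0 to 8 that the authors made from the same expression values, so cluster levels are a description too. H2-Aa stood at 259 CPM in cluster 4 (826 cells) and 252 CPM in cluster 8 (113 cells), and between 11.3 and 44.9 CPM in the other 7. H2-Eb1 stood at 147 and 194 CPM in clusters 4 and 8 and between 9.52 and 30.8 CPM elsewhere. H2-DMa was highest in the large cluster 2 (188 CPM), against 157 and 104 CPM in clusters 4 and 8. Ciita rested on 30 UMIs in cluster 4 (4.07 CPM) and on 2 UMIs in cluster 8. The 7 neutrophil markers summed to 1764 CPM in cluster 4, nearly all of it from the granule genes Elane and Mpo. In the 774 of its cells with under 10 UMIs of H2-Aa, H2-Ab1 and H2-Eb1 together, these stood at 1144 and 687 CPM. There S100a8, S100a9, Ngp, Camp and Ltf lay between 0.284 and 4.40 CPM. Cluster 8 carried T and NK cell genes (1585 CPM over 9 markers). In cluster 4 the level of H2-Aa differed between libraries from 22.1 CPM in AML 1 and 52.7 CPM in PBS 2 to 437 CPM in PBS 1. The order did not hold in 2 libraries, since H2-Aa was higher in cluster 0 of PBS 2 (80.0 CPM) and in cluster 3 of AML 1 (30.1 CPM) than in their cluster 4.

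In cluster 6 Cd74 was high, while H2-Aa, H2-DMa and H2-DMb1 were low. Its 177 cells, 172 of them in the MPP-3 class, carried 48470 CPM over 6 plasma cell markers. The 9 B cell markers summed to 638 CPM there (5 of 9 detected), against 16.6 to 117 CPM in the other clusters. Its 6 erythroid markers summed to 5543 CPM. Cd74 stood at 6549 CPM and was found in 97.7% of thinned cells, whereas H2-Aa stood at 11.3 CPM and H2-DMa at 17.8 CPM, the latter below every other cluster. H2-Ab1 (52.3 CPM) and H2-Eb1 (30.8 CPM) lay within the range of the other clusters, and for H2-Eb1 only clusters 4 and 8 were higher. H2-Eb1 was found in 6.86% of thinned cells of cluster 6, against 0.893 to 16.8% in the other clusters. H2-Ab1 was found in 13.7%, against 2.94 to 15.9%. H2-DMb1 was found in 0 of 175 cells thinned to 2000 UMIs and in 4.52% of 177 cells without thinning. At the thinned depth 3 cells with a UMI would be a share of 1.71%, and the Clopper-Pearson upper limit is 2.09%. There were 69.3 UMIs of Cd74 for each UMI of H2-Aa, H2-Ab1 and H2-Eb1 together, against 0.632 to 2.53 in the other clusters. H2-DMa and H2-DMb1 together gave 0.251 UMIs for each of these UMIs in cluster 6, 0.460 in cluster 4 and 0.262 in cluster 8, against 0.90 to 2.39 elsewhere. Cells of cluster 6 made up 44.7 to 94.3% of the Cd74 UMIs of the MPP-3 class in each library.

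The high level of cluster 4 came from few of its cells. The sum of H2-Aa, H2-Ab1 and H2-Eb1 was 0 in 11254 of the 16822 cells and 1 to 4 UMIs in 5241. A further 107 cells (0.636%) had at least 10 UMIs, a threshold chosen after the counts were seen, and they held 32.4% of all UMIs of these 3 genes, 31.5% of those of Cd74 and 1.43% of those of H2-DMa. Of the 107 cells 52 lay in cluster 4, 19 in cluster 0, 14 in cluster 2 and 9 in cluster 8. In cluster 4 the 52 cells held 89.6% of the UMIs of the 3 genes. The remaining 774 cells of cluster 4 stood at 12.1 CPM of H2-Aa and 59.0 CPM of Cd74, below each of the large clusters 0 to 3. In cluster 8 the 9 cells held 70.3% of the UMIs of the 3 genes and 63.6% of those of Cd74. Of the 9 T and NK cell markers 8 were lower in these cells than in the rest of cluster 8, with Trbc2 at 0 against 376 CPM. The remaining 104 cells of cluster 8 stood at 87.1 CPM of H2-Aa and 558 CPM of Cd74. The threshold is on raw UMIs, and the 107 cells had a median of 5889 UMIs against 4567 in all others.

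The 52 cells of cluster 4 also differed from the rest of the cluster in genes that did not choose them. Of the 9 markers of conventional dendritic cells 8 were higher in them and Clec10a was lower (3.21 against 8.22 CPM). Xcr1 had 23 UMIs in the 52 cells and 0 in the 774 others, Clec9a stood at 109 against 6.52 CPM, Zbtb46 at 35.3 against 0.851 CPM and Batf3, a factor of cross-presenting dendritic cells, at 218 against 1.13 CPM. Of the 10 monocyte and macrophage markers 7 were higher in them, among them Ccr2 at 144 against 25.9 CPM and Cd68 at 92.9 against 21.1 CPM. Ciita had 23 UMIs in the 52 cells and 7 in the 774. The granule genes that mark the cluster were low, with Elane at 16.0 against 1144 CPM and Mpo at 54.5 against 687 CPM. The progenitor gene Cd34 stood at 57.7 against 179 CPM. Ly6a (182.7 against 79.8 CPM), Ptprc (163.5 against 56.7 CPM) and Kit (44.9 against 41.8 CPM) were higher in the 52 cells. These genes carry no test, since the cells were picked after their counts were seen.

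The class II-high cells of clusters 0 and 2 had another makeup. In cluster 0 the 19 cells kept Kit (146 against 135 CPM in the rest) and Cd34 (168 against 238 CPM) and had Ly6a, the Sca1 gene, at 477 against 138 CPM and Iigp1, an interferon-γ-induced GTPase gene, at 212 against 42.1 CPM. In cluster 2 the 14 cells had Ly6a at 919 against 178 CPM, Isg15 at 1080 against 299 CPM and Iigp1 at 214 against 47.9 CPM. Cxcl10, an interferon-induced chemokine gene, stood at 791 against 16.3 CPM there. Iigp1, Isg15, Cxcl10 and Cd274 were picked after values were seen. Cxcl10 was found in 28.6% of these 14 cells, and 10 of the 14 came from AML 3, whereas 13 of the 19 cells of cluster 0 came from PBS 2. Over all kept cells Ly6a stood at 199 CPM in PBS 2 and 203.5 CPM in AML 3 and at 101 to 116 CPM in the other libraries. In cluster 0 neither Isg15 (103 against 137 CPM) nor Cxcl10 (0 against 3.20 CPM) was higher. Cd274 stood at 27.1 against 27.8 CPM in cluster 0 and at 150 against 14.5 CPM in cluster 2. Of the 9 conventional dendritic cell markers, 3 were higher and 5 lower in the high cells of each of these clusters, on few UMIs. By library there were 23, 19 and 13 class II-high cells in PBS 1, 2 and 3, 1 in AML 1 and 51 in AML 3. As a share this was 0.336, 2.03 and 0.296% in PBS, 0.144% in AML 1 and 1.29% in AML 3, and PBS 2, the library with the most UMIs per cell, had the largest share. Leaving the 107 cells out gave fitted AML values of 0.00 for Cd74 and 0.15 for H2-Aa over all kept cells.

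**Figure D3:**
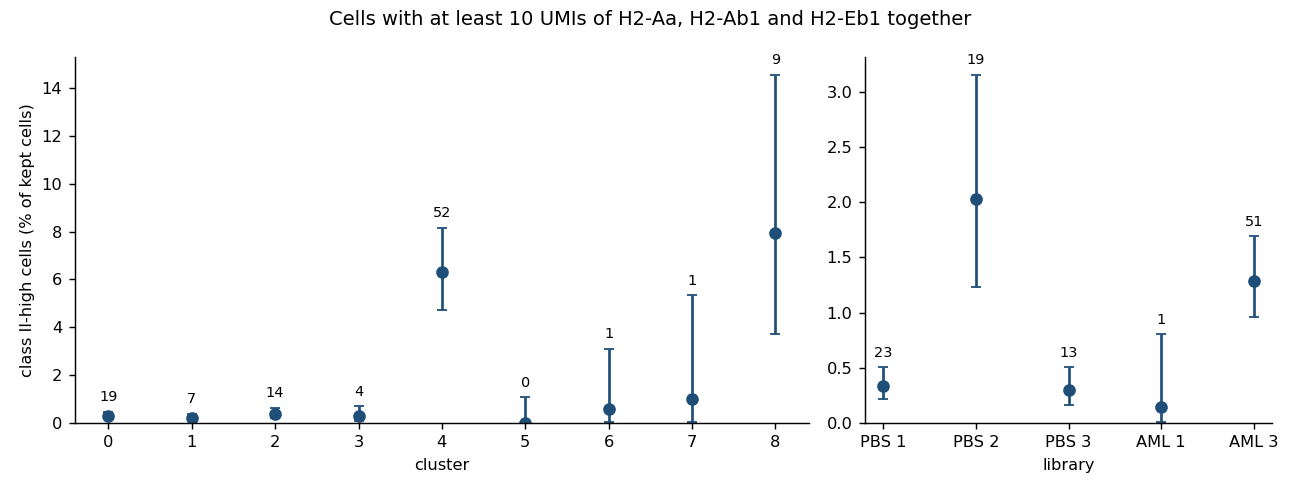
Share of kept cells with at least 10 UMIs of H2-Aa, H2-Ab1 and H2-Eb1 together, by cluster (left) and by library (right), with exact 95% intervals and the number of such cells above each. Clusters 4 and 8 hold 52 and 9 such cells at 6.29 and 7.96% of their cells, and no other cluster exceeds 1%.

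Within the classes, no class II gene was called between AML and PBS either. edgeR called 0 of 6 tested genes in the HSC class (0.178% of all genes passed), 0 of 7 in MPP-2 (0.0399%), 0 of 6 in MPP-3 (0.0486%) and 0 of 7 in MPP-4 (0.0325%). Ciita was under the count filter in HSC and MPP-3. DESeq2 called 0 in each class, and at an unadjusted p under 0.05 there was Cd74 alone, in HSC and in MPP-3. In the HSC class Cd74 stood at 183, 259 and 149 CPM in PBS, at 147 CPM in AML 1 and at 434 CPM in AML 3, with a log2 fold change of 0.63 ± 0.274 (edgeR adjusted p 0.992). The group ranges overlapped, since AML 1 lay below all PBS libraries, and without AML 3 the value was -0.84. In MPP-3 Cd74 stood at 1508, 2500 and 1417 CPM in PBS and at 244 and 1023 CPM in AML, so that both AML libraries lay below all PBS libraries (-1.77 ± 0.528, edgeR adjusted p 0.303). The value was -3.16 without AML 3 and -1.06 without AML 1. Without clusters 6, 7 and 8 the MPP-3 value was 0.02 (edgeR adjusted p 0.999).

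The AML effect on Cd74 differed between the classes in edgeR, a call that was lost in limma-voom and without clusters 6, 7 and 8. In one fit over the library and class sums, edgeR's F test of the class-by-treatment terms called Cd74 (adjusted p 0.00361) and no other member, where 0.872% of 12734 genes passed. Relative to the HSC class the AML effect on Cd74 was -2.04 on the log2 scale in MPP-3, 0.03 in MPP-2 and 0.18 in MPP-4. In MPP-3 cells of cluster 6 Cd74 stood at 8596, 5881 and 6190 CPM in PBS, 3688 CPM in AML 1 (8 cells) and 5675 CPM in AML 3. In MPP-3 cells outside cluster 6 it stood at 499, 239 and 450 CPM in PBS, 34.5 CPM in AML 1 and 616 CPM in AML 3, so that the groups overlapped. Cluster 6 gave 6.66, 29.3 and 9.48% of the MPP-3 cells in PBS 1, 2 and 3 (12 of 41 cells in PBS 2), 3.51% in AML 1 and 6.69% in AML 3. Without clusters 6, 7 and 8, a fit added after the data were seen, the adjusted p for Cd74 was 0.715, and it was 0.0637 without AML 1 and 0.555 without AML 3. limma-voom with a random effect for library gave 0.780 and passed 1 of 12734 genes.

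**Figure D4:**
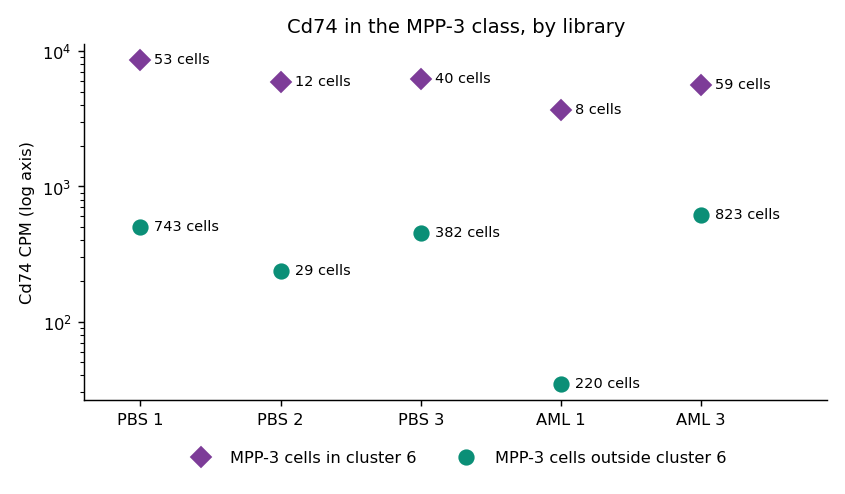
Cd74 CPM in MPP-3 cells inside and outside cluster 6 for each library, on a log axis, with cell numbers beside the points. Cells of cluster 6 lie between 3688 and 8596 CPM, and the other MPP-3 cells between 34.5 and 616 CPM.

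Cd74 was lower in cycling cells than in G1 cells of the HSC class, and so were H2-Aa and H2-Eb1. The phase comes from cell cycle genes, none of which is a class II gene, so the labelling of cells by phase did not use the family. Cells called S or G2M were summed as cycling, and each library was compared with itself in the 4 libraries with at least 20 cells of either kind. A set of 8 cycle genes, among them Mki67, Top2a and Pcna, summed to 113 to 164 CPM in G1 cells and 790 to 974 CPM in cycling cells of these libraries, a description since phase calls rest on such genes. Cd74 stood at 218 CPM in G1 and 68.3 CPM in cycling cells of PBS 1, 295 and 88.2 CPM in PBS 2, 178 and 45.5 CPM in PBS 3, and 479 and 230 CPM in AML 3. Every library showed the fall, and cycling cells of AML 3 were within the range of the G1 cells of the PBS libraries. The log2 fold change, cycling over G1, was -1.46 ± 0.108 (SE; edgeR with the library as a block, adjusted p 7.9e-15). H2-Aa fell by 1.01 ± 0.161 on the log2 scale (edgeR adjusted p 3.3e-06), from 61.3, 120, 79.2 and 98.3 CPM to 23.6, 71.9, 22.1 and 76.5 CPM in PBS 1, 2, 3 and AML 3. H2-Eb1 fell by 1.13 ± 0.247 on the log2 scale (edgeR adjusted p 0.000432), with 41.1 against 40.7 CPM in AML 3 and larger falls in the 3 PBS libraries.

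H2-Ab1 went the other way in the same cells. It stood at 49.8, 59.4, 48.2 and 60.8 CPM in G1 and at 63.0, 91.5, 50.6 and 88.5 CPM in cycling cells of PBS 1, 2, 3 and AML 3. It was higher in cycling cells in 4 of 4 libraries, with a log2 fold change of 0.44 ± 0.135 (edgeR adjusted p 0.0143), but did not pass under DESeq2 (adjusted p 0.181), without AML 3 (0.0691) or without PBS 1 (0.121). H2-DMa and H2-DMb1 were not called, at -0.16 ± 0.110 and 0.03 ± 0.161. Among all genes of this fit 7.96% were lower and 14.2% higher in cycling cells, beside 3 of 6 members lower and 1 of 6 higher. The fitted median was -0.58 over the 6 members and -0.01 over all genes tested.

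**Figure D5:**
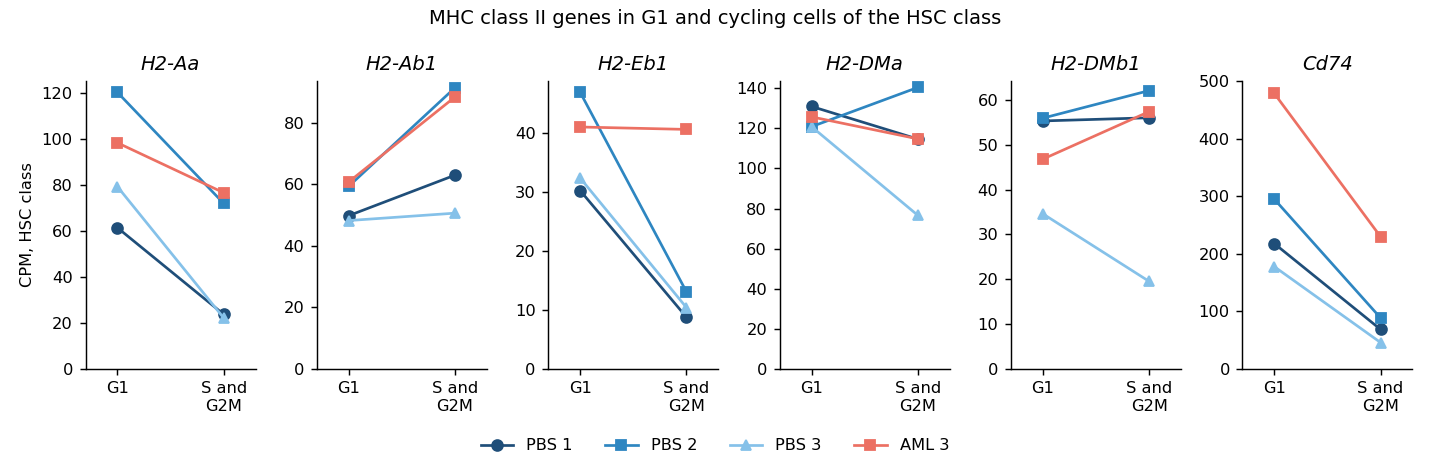
CPM of 6 class II genes in G1 and in cycling (S and G2M) cells of the HSC class, with a line for each of the 4 libraries that have both. Cd74, H2-Aa and H2-Eb1 are higher in G1 in 4 of 4 libraries, and H2-Ab1 is lower in G1 in 4 of 4.

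The HSC class comparison was also made with some cells left out, in 3 settings added after the data were seen. Without clusters 4, 6, 7 and 8 the log2 fold change was -1.25 for Cd74 and -0.83 for H2-Aa, and without cells holding a mature-cell marker it was -1.25 and -0.80, each with H2-Aa, H2-Eb1 and Cd74 called. Of the 13 class II-high cells in this class 11 were in G1, and without them the value of Cd74 was -1.38. Those cells were chosen on the counts of H2-Aa, H2-Ab1 and H2-Eb1, so that setting says nothing of these 3 genes. In thinned cells Cd74 was found in 17.4% of G1 and 9.95% of cycling HSC-class cells of PBS 1, in 20.9 and 11.1% in PBS 2, in 12.8 and 6.34% in PBS 3 and in 33.1 and 23.9% in AML 3. The share with H2-Aa was lower in cycling cells in 4 of 4 libraries. The share with H2-Eb1 was lower in PBS 1 and PBS 2 but not in PBS 3 (3.30% in G1 and 3.52% in cycling cells) or AML 3 (7.22 and 9.86%). Cycling cells had more UMIs before thinning, with medians of 4567 against 3030 in PBS 1.

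The other classes were compared in the same way. In MPP-2 only H2-Aa was called, lower in cycling cells by a log2 value of -0.65 ± 0.178 (edgeR adjusted p 0.00699), where 11.6% of genes were lower and 15.4% higher, and it was not called without PBS 1 (-0.40, adjusted p 0.257). In MPP-4 Cd74 (-0.65 ± 0.0581, adjusted p 8.7e-28), H2-Eb1 (-0.47 ± 0.134, adjusted p 0.00174) and H2-Aa (-0.33 ± 0.0980, adjusted p 0.00297) were called by edgeR, where 19.7% of genes were lower and 21% higher. Of these Cd74 alone passed in DESeq2, and without PBS 3 H2-Eb1 and H2-Aa did not pass (adjusted p 0.120 and 0.330). Each of these 2 genes was not called in 5 of 12 alternatives. In MPP-4 Cd74, H2-Eb1 and H2-Aa were each lower in cycling cells in 4 of 5 libraries. In PBS 1 Cd74 stood at 108.7 CPM in G1 and 109.1 CPM in cycling cells, and H2-Aa at 28.6 and 30.5 CPM. In PBS 3 Cd74 fell from 174 to 49.4 CPM, so single libraries spread more widely than its SE. The exception for H2-Eb1 was AML 1, on 0 UMIs in G1 and 3 in cycling cells. In MPP-3 Cd74 (-3.95), H2-Aa (-2.53), H2-Eb1 (-2.41) and H2-Ab1 (-0.91) were called, where 16.5% of genes were lower and 19.8% higher. None of the 4 was called without clusters 4, 6, 7 and 8, a fit that also lost AML 1 for want of cells and kept 3 libraries. There Cd74 had -0.39 (edgeR adjusted p 0.0570), and H2-Aa (0.0157), H2-Ab1 (0.37) and H2-Eb1 (0.0708) turned positive. These clusters held 564, 172, 7 and 72 of the 2369 MPP-3 cells. Whether the phase difference itself differs between classes was not tested.

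Within single cells H2-Eb1 and Cd74 were more frequent where H2-Aa was present, while H2-DMa had similar shares with and without it. In 15410 thinned cells outside clusters 4 and 6 to 8, H2-Eb1 was present in 16.3% of cells with H2-Aa and 2.14% of cells without it. Cd74 was present in 43.9% of cells with H2-Aa and 9.52% of the others, and in 49.8% of cells with H2-Eb1 and 10.4% of the others. H2-DMa was present in 26.4% of cells with H2-Aa and 25.3% of those without, and Cd74 in 11.6% of cells with H2-DMa and 11.5% of those without. H2-Ab1 stood between, with 17.9% against 9.83% by H2-Aa. Over the 20 sums of 5 libraries and 4 classes, Pearson's r of log2 (CPM + 1) was 0.79 for H2-Aa with H2-Eb1, 0.79 for H2-Eb1 with H2-DMa, 0.50 for H2-Aa with Cd74 and 0.10 for H2-DMa with Cd74. These sums share libraries and depth, so r is a description. Without the AML 1 HSC sum, left out after the values were seen, which has 23 cells and no UMI of H2-Eb1 or H2-DMa, r was 0.90 for H2-Aa with H2-Eb1 and 0.30 for H2-Eb1 with H2-DMa.

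The promoters of H2-Aa and H2-Eb1 share a pair of sequence boxes. They are shown with both boxes in capitals because class II promoters are known to bind the RFX and NF-Y complexes, which recruit CIITA, at an X box and a Y box. The stretches are from RefSeq (GRCm38.p6), on the strand of each gene and upstream of its start, at chr17:34287837-34287937 (minus strand) for H2-Aa and chr17:34305743-34305842 (plus strand) for H2-Eb1.
H2-Aa: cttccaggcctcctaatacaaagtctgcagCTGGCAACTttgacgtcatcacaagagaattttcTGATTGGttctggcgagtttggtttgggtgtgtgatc
H2-Eb1: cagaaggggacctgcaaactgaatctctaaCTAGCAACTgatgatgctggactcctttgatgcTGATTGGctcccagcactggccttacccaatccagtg
The X box was searched as CTNGNAACT and the Y box as TGATTGG, on both strands, with letters chosen after these sequences were read. Of 32851 windows from 250 bases before to 50 bases after a gene's start, 4.10% held the first, 7.82% the second and 5 held both on 1 strand at most 30 bases apart. The 5 were H2-Aa, H2-Eb1 and H2-DMb1 (25, 24 and 25 bases apart), BC051142 on chromosome 17 and 1700048F04Rik on chromosome 5. Neither window of H2-DMa held either box in these letters. Windows were found for 4 of the 7 genes, and those of H2-Ab1, Cd74 and Ciita were not used here. A match is a description of the letters only.

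The genes whose pattern over the 20 sums was most like the family followed Cd74. Of the 7983 genes with a mean of at least 10 CPM, and with the family and its pathway left aside, the summed level of the 6 members other than Ciita correlated best with Cyba (Pearson's r 0.91), Herpud1 (0.90), Xbp1 (0.88), Iglc3 (0.86) and Fam214a (0.85). The sum itself correlated with Cd74 at 0.95 and with H2-DMa at 0.32, so the likeness is mainly one to Cd74. Xbp1 and Iglc3, a plasma cell factor and an immunoglobulin light chain gene, are expressed by plasma cells, whose markers lead cluster 6.

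Of 33 other genes of the class II pathway, 32 were in the matrices (factors of the promoter complex, interferon-γ receptors and kinases, endosomal proteases and costimulatory genes). Between AML and PBS over all kept cells edgeR called 0 of 30 pathway genes, 3 having an unadjusted p below 0.05 (1511 of all 14364 genes did), with a median log2 fold change of -0.03. H2-Eb2 and Cd40 were under the count filter. The AML effect differed between classes for 2 of 29 tested pathway genes, the endosomal proteases Ctss (adjusted p 0.000661) and Ctsh (adjusted p 0.00846), in the edgeR fit where 0.872% of all genes passed and limma-voom passed 1 gene in all. In the HSC class 5 of 22 tested pathway genes were lower in cycling cells and 2 higher, beside 7.96 and 14.2% of all genes. The genes, named after their values were seen, were the proteases Ctsl (-0.74), Ctss (-0.89) and Ctsh (-1.59), the kinase Jak1 (-0.29) and the factor Creb1 (-0.35), all lower, and Pdia3 (0.47) and the NF-Y subunit Nfyb (0.54), both higher. H2-DMb1 and its paralog H2-DMb2 are close in sequence, so their reads may be shared or lost and their values are uncertain one by one.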

How the data were processed

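Droplet single-cell RNA counts of sorted LSK cells were taken as deposited. The authors made the UMI counts per gene and barcode with Cell Ranger 7.0.1 against GRCm38, named mm10 too, per the labels' processing notes, with 1 library per matrix. The authors' cell table, from Seurat 4.3.0 in R 4.2.2, gives each kept cell its library, phase, cluster, class, the percent of mitochondrial UMIs and 4 module scores, of which the authors took the highest as the class. Their cell filter, doublet handling and score genes are not stated in those sources, and no doublet caller was run. A further 14 columns of that table were not used. The table was joined to the matrices by library and barcode, and UMI totals were equal for all 16822 cells.

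Counts were summed per library, or per library and class or phase, for sums of at least 20 cells. They were tested with edgeR 4.0.16 (quasi-likelihood, TMM, filterByExpr) in R 4.3.3, with Benjamini-Hochberg adjustment over all genes at 0.05. DESeq2 1.42.0 and limma 3.58.1 served as alternatives. The edgeR fits were also run on simulated counts with a common dispersion and independent sums, a simpler setting than these libraries. No result here rests on that run. Kept UMIs per library ran from 1945659 in AML 1 to 32123508 in PBS 1. Shares of cells were computed after each cell was thinned to 2000 UMIs, with Clopper-Pearson intervals and exact permutation over libraries (Python 3.11.15, scipy 1.17.1).

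All 7 family genes were named in every comparison. Other pathway genes were to be named only when called over all kept cells, and those named otherwise were chosen after their values were seen. The 5 genes most alike were those with the highest Pearson correlation. The members and gene lists were chosen with earlier results of these data known.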

Additional observations from a re-analysis of the deposited data

Results flagged for a closer look

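The AML effect on Cd74 differed between the classes (edgeR F test, adjusted p 0.00361), with the lowest value in MPP-3. In this class the AML libraries stood at 244 and 1023 CPM and the PBS libraries at 1417 to 2500 CPM, and without clusters 6, 7 and 8 the adjusted p was 0.715. In limma-voom with a random effect for library it was 0.780.

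Barcodes that the cell table leaves out also held class II transcripts, at levels above every PBS library in some AML libraries. In AML 3 they stood at 113 CPM for H2-Aa (at most 49.4 CPM in PBS), 102.0 CPM for H2-Ab1 (at most 66.2), 69.9 CPM for H2-Eb1 (at most 23.0), 54.7 CPM for H2-DMb1 (at most 50.9) and 482.5 CPM for Cd74 (at most 195.6). In AML 1 H2-Eb1 stood at 25.3 CPM. H2-DMa was below every PBS library (145 to 171 CPM) in AML 1, 2 and 3, at 71.5, 122 and 143 CPM. H2-Ab1 (31.6 and 50.6 against at least 62.9 CPM) and H2-DMb1 (10.2 and 23.4 against at least 34.3 CPM) were below PBS in AML 1 and AML 2. Ciita stood at 2.14, 3.24 and 3.54 CPM in AML 1, 2 and 3, on 18, 23 and 25 UMIs, and at most at 1.61 CPM in PBS. What these barcodes hold is not known here, and no group test was made on them.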

How the results depend on the processing

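Over all kept cells, 0 of 7 class II genes were called under each of 18 alternatives. The direction of small values turned in some. The value of H2-Ab1 was -0.0399 with a filter on all 6 libraries (at least 1000 genes and at most 10% mitochondrial UMIs per cell), -0.0148 without clusters 4, 6, 7 and 8 and -0.0307 without class II-high cells. That of Cd74 was -0.34 in limma-voom, -0.0642 with the 6-library filter, -0.76 with equal class composition and -0.0029 without class II-high cells. That of Ciita was 0.0158 with library size only and 0.14 with the 6-library filter. Leaving out 1 library gave log2 values of -0.998 to 0.78 for H2-Aa, -0.48 to 0.39 for H2-Ab1, -0.86 to 0.92 for H2-Eb1, -0.81 to 0.0143 for H2-DMa, -0.98 to 0.26 for H2-DMb1, -1.16 to 0.77 for Cd74 and -1.62 to 0.23 for Ciita, with AML 3 left out at the low end of each, and -0.84 to 1.02 for Cd74 in the HSC class and -3.16 to -1.06 in MPP-3.

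With the replicate block (libraries sharing a number) Cd74 had -0.24 over all kept cells, and 0 class II genes were called there and in each class. Over all genes the block moved the calls from 23 to 91 in all kept cells. Deviations of libraries with the same number had r -0.09 and -0.13 over 13631 genes. With 2 AML libraries these values are tied by centring, so they test little, and the labels give the numbers no shared source.

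In MPP-3 Cd74 was called between AML and PBS with no low-count filter (1 gene), and its value was 0.0166 without clusters 6, 7 and 8. The class-by-treatment test called 0 members in limma-voom (a random effect for library), 0 without clusters 6, 7 and 8 and 0 to 1 with 1 library left out.

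Of the 6 genes tested between cycling and G1 cells of MPP-2, 2 were called with no low-count filter, 2 in PBS libraries only, 2 without clusters 4, 6, 7 and 8, 2 without mature-marker cells, 2 without class II-high cells, 0 for S alone and 0 to 2 with 1 library left out. In MPP-3 without clusters 4, 6, 7 and 8, 0 were called and H2-Aa had 0.0157, H2-Ab1 0.37 and H2-Eb1 0.0708. In MPP-4 DESeq2 called 1.

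Differences in thinned shares turned at 1000 UMIs for H2-Aa (-0.20 points), H2-Ab1 (-0.0562) and H2-Eb1 (-0.0462), without thinning for H2-Aa (-2.09), H2-Ab1 (-6.28) and H2-Eb1 (-1.07), and without clusters 6, 7 and 8 for H2-Eb1 (-0.045). With 1 library left out they ran from -1.85 to 2.67 for H2-Aa, -2.87 to 3.27 for H2-Ab1, -1.40 to 1.75 for H2-Eb1, -11.8 (without AML 3) to -0.12 (without AML 1) for H2-DMa, -5.40 to 0.42 for H2-DMb1, -2.67 to 8.37 for Cd74 and -0.42 to 0.0346 for Ciita. In thinned cells the HSC level minus the MPP-4 level in PBS was -73.9 CPM for H2-DMa and -1.99 CPM for Ciita. The cause of these shifts was not tested. AML 1, with 693 kept cells, and Ciita, with 164 UMIs in all, limit what could be detected.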

Other observations

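AML 2 has no cell in the deposited table. Under a filter of at least 1000 genes and at most 10% mitochondrial UMIs, 106 of its 17055 barcodes remained, with 16.3 CPM of H2-Aa (5 UMIs) and 118 CPM of Cd74 (36 UMIs). The corresponding values were 21.2 and 62.2 CPM in AML 1 and 84.0 and 463 CPM in AML 3.

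Outside the family, the plasmacytoid dendritic cell markers summed to 347 to 378 CPM in PBS, 514 CPM in AML 1 and 551 CPM in AML 3, and the monocyte and macrophage markers to 29.1 to 37.7 CPM in PBS, 44.7 CPM in AML 1 and 64.7 CPM in AML 3. Both AML libraries lay above the PBS libraries for these 2 lists. The difference was not tested.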
